A study of Homo sapiens with 3 samples.

Results

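The very wide ETS1 peaks were the peaks that spanned 3000 bp or more in a consensus list of ETS1-bound regions from SCC25 cells. This rule kept 715 of the 26958 peaks on chromosomes 1 to 22 and X, or 2.65% (95% Wilson interval 2.47 to 2.85), while the whole list held 26970 peaks. Members were chosen by their measured width in this list, so widths are given as a description only. SCC25 is an established human cell line of tongue squamous carcinoma origin, studied untreated as a mesenchymal head and neck cancer line. ETS1-bound DNA was recovered by ChIP-Seq in 3 samples, of which 2 used antibody C20 and 1 used antibody 501A. The study merged them into 1 list of positions by the irreproducible discovery rate (IDR), with peaks called against a merged input, so no value per sample, signal height, summit or depth accompanies a peak. All positions are on hg19 (GRCh37), and the line's identity could not be checked against marker genes because the list holds no expression.

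ETS1 belongs to the ETS family of transcription factors, which bind DNA through a winged helix-turn-helix domain at a GGAA core. Many ETS factors sit at the CpG-rich promoters of broadly used genes, where the core often follows CC, and at distal enhancers, where they can share elements with AP-1, the Fos and Jun dimers that bind TGANTCA. A ChIP-Seq peak much longer than a single binding event covers several sheared fragments, and its edges depend on how the caller joined neighbouring signal.

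The following reference stretches (GRCh37) show the ETS letters nearest to the midpoint of 10 named wide peaks: 5 of the 6 widest, followed by JUNB, CCND1, EGFR, KRT5 and TGFB1 from the gene lists. Each is read 5′ to 3′ on the strand given, and the capitals mark CCGGAAG, or GGAA where the whole peak held no CCGGAAG. They are shown because the density of the longer site by peak width is a main result below. LTBP4, chr19:41107961-41107986, plus strand, in an intron of the gene, has the core alone.
LTBP4: ggttctgtatgGGAAtgcctgtgagg
BCL9L, chr11:118794750-118794778, plus strand, lies in an intron.
BCL9L: gcagcccctgcCCGGAAGtggctgctccc
MRGPRF, chr11:68779122-68779150, minus strand, lies in an intron.
MRGPRF: ttaccaggcgcCCGGAAGgatgagggcag
ZC3H12A, chr1:37941251-37941279, plus strand, lies in coding sequence.
ZC3H12A: gtggacttcttCCGGAAGctgggctattc
IER2, chr19:13262671-13262699, plus strand, lies in an intron.
IER2: aatatgggcaaCCGGAAGcggcccgcgcg
JUNB, chr19:12903429-12903457, plus strand, lies in coding sequence.
JUNB: gccaccaagtgCCGGAAGcggaagctgga
CCND1, chr11:69460701-69460729, minus strand, lies in an intron.
CCND1: tgacagctgtcCCGGAAGctccttggcac
EGFR, chr7:55088092-55088120, plus strand, lies in an intron.
EGFR: gagcggaagccCCGGAAGcagagctcatc
KRT5, chr12:52914040-52914068, plus strand, lies in coding sequence of this minus-strand gene.
KRT5: ctgcccccgctCCGGAAGgacacacttga
TGFB1, chr19:41858455-41858480, minus strand, lies in an intron and has the core alone.
TGFB1: ccggggcaaagGGAAcgtgtgatggt
In the MRGPRF peak the site stood 88 bp from the midpoint, and in the CCND1 peak 2812 bp from it. The 10 stretches therefore mark letters inside the peaks and not the places of strongest binding, which the list does not give.

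Wide peaks ran from 3003 to 13094 bp with a median of 3599 bp (quartiles 3238 and 4148 bp), while the median of all other peaks was 950 bp. Most were only moderately above the limit: 502 were under 4 kb, 185 were from 4 to under 6 kb, and 28 reached 6 kb or more. Together they covered 2.76 Mb, or 8.95% of the 30.8 Mb covered by the list. The 3 members nearest to the limit were each 3003 bp, 1 covering a CDHR2 start, 1 whose nearest coding start was ZFP36 and 1 in the body of SPC24. The 3 widest non-members, at MEF2D, MRPL23 and RNF225, were each 2994 bp. In the order of the deposited list the wide peaks had a median position of 7052 against 13692 for the others. The first 10% of the list held 169 of them (23.6%) and the last 10% held 13 (1.82%), although the measure behind that order is not given.

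**Figure D1:**
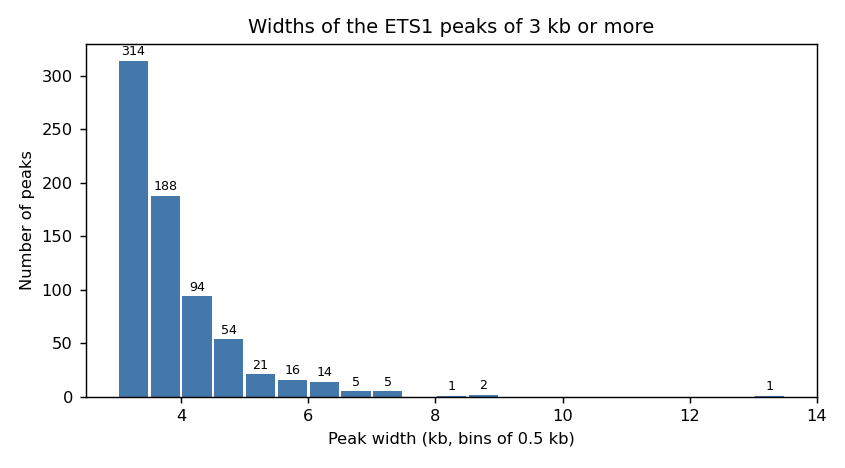
Number of ETS1 peaks of 3 kb or more (y axis) in bins of 0.5 kb of peak width (x axis, kb). Counts fall from 314 peaks in the first bin to 4 peaks in all at 8 kb or more, including 1 peak at 13094 bp.

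The widest peak lay at PLEC, which encodes plectin, a linker between keratin filaments and hemidesmosomes. It spanned 13094 bp (chr8:145006330-145019423), a gap of 107 bp parted it from another wide peak, and a further PLEC peak of 7181 bp ranked seventh. The second widest, of 8898 bp, covered a start of LTBP4 (chr19:41103602-41112499), whose product binds latent TGF-beta in the matrix. The next, of 8776 bp, held starts of BCL9L, a beta-catenin coactivator, and of UPK2, a uroplakin (chr11:118788231-118797006). A peak of 8135 bp covered MRGPRF, a receptor gene, and its antisense gene MRGPRF-AS1 (chr11:68775157-68783291). ZC3H12A, which encodes an RNase that degrades inflammatory mRNAs, had a peak of 7483 bp. IER2, an immediate early gene, shared a peak of 7482 bp with STX10, a syntaxin gene.

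Of the 20 widest peaks, 19 covered a transcription start site (TSS) and 18 covered a start of a protein-coding gene. The others included CYP26B1 (7111 bp), whose enzyme clears retinoic acid, TNRC18 (7079 bp), PLEKHH3 (6981 bp), GSE1 (6937 bp) and CRIP1 with TEDC1 (6910 bp). LAMA5 (6619 bp) encodes a laminin chain of the basement membrane, AHNAK (6480 bp) a large scaffold protein, and CTTN (6473 bp) the actin regulator cortactin. LYL1 (6465 bp) encodes a bHLH factor, and CCND1 (6277 bp) encodes cyclin D1, which drives entry into the cell cycle. BCL9L had another peak of 6568 bp, which also held the miRNA gene MIR4492. The peak of 6488 bp at chr19:13949587-13956074 covered the start of a noncoding host gene, MIR23AHG, and no coding start. The only 1 of the 20 without any TSS was a peak of 6440 bp inside ANO1, a calcium-activated chloride channel gene. CCGGAAG was missing from 8 of the 20.

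The first comparison asked where the wide peaks lay relative to TSSs, measured from the peak midpoint so that length itself gave no advantage. The midpoint was within 500 bp of a TSS in 393 of 715 wide peaks, or 55.0% (51.3 to 58.6), against 43.3% over all peaks. This share was 64.2% in peaks of 2 to 3 kb, 62.3% in those of 1 to 2 kb and 25.9% in those under 1 kb. The difference between the wide and the 2 to 3 kb peaks was -9.26 percentage points, with a 95% Newcombe interval of -13.4 to -5.14. The share with a midpoint 500 to 1500 bp away was 27.0% in the wide peaks and 14.6%, 6.74% and 7.84% in the same narrower classes, a difference of 12.4 points (8.94 to 16.1) from the nearest class. Beyond 1500 bp lay 129 wide peaks (18.0%), against 48.1% over all peaks and 21.2%, 31.0% and 66.2% by class. A midpoint of a long interval can lie far from the feature that anchors it, so these values describe the interval's centre. All intervals here cover counting error only, since peaks of 1 pooled list are not replicates of a condition.

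**Figure D2:**
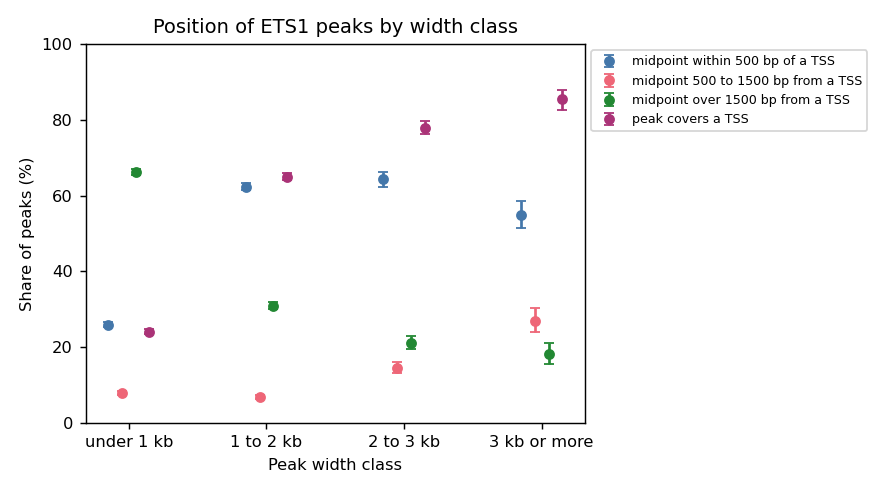
Share of peaks (y axis, %) in each width class (x axis) by the position of the midpoint, and the share that covers a TSS. Points are shares and bars 95% Wilson intervals. At 3 kb or more the share covering a TSS is 85.5%, whereas the share centred within 500 bp of one is 55.0%.

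At least 1 TSS lay inside 611 wide peaks, or 85.5% (82.7 to 87.8), against 45.3% over all peaks. In the narrower classes the share was 77.9%, 65.0% and 24.0%, and it rises with length by construction. Wide peaks held 1.49 annotated TSSs per kb, fewer than the 2.45, 3.43 and 2.31 per kb of the narrower classes. A protein-coding start was covered by 566 (79.2%), against 40.6% over all peaks and 72.6% in the 2 to 3 kb class. A lncRNA start was covered by 201 (28.1%), against 12.4% over all peaks and 24.8% in that class, a difference of 3.33 points whose interval, -0.325 to 7.16, included 0. In 38 (5.31%) there was a lncRNA start and no coding start, against 4.05% over all peaks. The 104 wide peaks with no TSS at all were 14.5% of the set.

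Starts of 2 or more protein-coding genes fell in 100 wide peaks, or 13.99% (11.6 to 16.7), against 6.38% over all peaks. The 2 to 3 kb class had 12.6%, a difference of 1.40 points whose interval, -1.36 to 4.43, included 0. Counting only the canonical start of each gene, 52 wide peaks (7.27%) had 2 or more, against 4.21% over all peaks. The narrower classes had 8.95%, 6.91% and 1.36%, so by this count the wide peaks were not the highest. The difference from the 2 to 3 kb class was -1.68 points, with an interval of -3.78 to 0.730 that included 0. Among the 48 with exactly 2 canonical starts, 32 were divergent pairs (66.7%, against 76.1%, 73.1% and 59.8% in the narrower classes), 13 pairs ran on the same strand and 3 overlapped or converged. The peak with the most coding genes (4698 bp, chr16:3069956-3074653) held starts of CLDN6, a claudin gene, HCFC1R1, THOC6, which encodes an mRNA export factor, and TNFRSF12A, the TWEAK receptor gene. EME2, MRPS34 and NME3 shared 5655 bp, CLCF1 and RAD9A shared 5278 bp, and TGFB1 and TMEM91 shared 3812 bp, the last 2 together with an unnamed locus each.

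The extension of a peak to each side of a start was measured in the 419 wide peaks with 1 canonical coding TSS. They reached a median of 1468 bp upstream and 2150 bp downstream, so that 58.7% of the median peak lay on the gene side. This share was 58.8%, 57.8% and 58.1% in the narrower classes, which is within 1 point of the wide peaks. Of the 419, 276 reached farther into the gene than upstream (65.9%, 61.2 to 70.2). A reach of at least 2 kb into the gene was seen in 241 (57.5%), and of at least 2 kb upstream in 131 (31.3%). In the 2 to 3 kb class these 2 shares were 8.70% and 2.20%. Both rise with length by construction, and peaks under 2 kb cannot reach so far. IER2 and CCND1 were among the peaks drawn out into the gene, with 6477 and 5117 bp downstream of the start and 1004 and 1159 bp upstream. KRT5, KRT7 and ACTG1 had the opposite shape, with 2809, 2826 and 3135 bp upstream and 605, 219 and 386 bp downstream.

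The 104 peaks without a TSS and the 129 with a distant midpoint are different sets, since a long peak can reach a start from afar. The 129 split into 49 intergenic midpoints, 27 in a first intron, 44 elsewhere in a gene body and 9 in an exon. Only protein-coding genes counted as genes here, so an intergenic midpoint can lie in a lncRNA gene. The intergenic share was 6.85% in wide peaks and 9.97%, 16.0% and 35.0% in the narrower classes. The widest intergenic one spanned 6203 bp (chr9:139514557-139520759), 35650 bp from its nearest coding start at EGFL7, a secreted vascular protein gene. The next spanned 6147 bp (chr12:52537073-52543219) in the keratin region, 39387 bp from the start of KRT80. A peak of 5411 bp lay 35139 bp from MYEOV (chr11:69188758-69194168) and a peak of 5326 bp lay 15323 bp from DNAJB12, a chaperone gene (chr10:74078637-74083962). The peak at TSHZ3, a zinc finger factor gene, was 5524 bp long and did cover starts of the gene, although its midpoint lay 1837 bp outside it.

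Base composition was compared in a window of 600 bp at the midpoint. GC content there was 65.6% ± 7.003 (SD over the 715 peaks), close to the 65.9% ± 7.87 of the 2 to 3 kb class and above the 63.7% and 53.9% of the narrower ones. The gap between the widest classes, under 1 point, was small beside the spread among peaks. Over whole peaks the wide class had 56.3 ± 23.6 CpG per kb (SD), against 59.8, 55.3 and 29.4. The ratio of observed to expected CpG in the window averaged 0.599, against 0.649, 0.613 and 0.367. Windows of the peak's own length placed 5 kb away had 50.9% GC beside wide peaks and 48.4%, 46.6% and 45.3% beside the others, so the surroundings of wide peaks were also the richest in GC. Exons of canonical protein-coding transcripts made up 15.9% of the bases in wide peaks, against 16.3%, 13.8% and 7.71%. In the inner part of wide peaks, a central stretch as long as the outer parts together, CpG stood at 64.8 per kb, and in the outer part at 46.8.

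The ETS and AP-1 letters were then counted on both strands. CCGGAAG contains CGGAA and GGAA, so those counts overlap, whereas CCGAAGG has the same letters with the core broken and served as a comparison for base composition. CCGGAAG occurred 443 times in wide peaks, or 0.160 per kb (exact Poisson interval 0.146 to 0.176). The density was 0.209 per kb in peaks of 2 to 3 kb, 0.281 in those of 1 to 2 kb and 0.232 in those under 1 kb. CCGAAGG occurred 375 times, or 0.136 per kb, against 0.138, 0.128 and 0.0762. The ratio of the former to the latter was thus 1.18 in wide peaks and 1.52, 2.19 and 3.04 in the narrower classes, with 1.34, 1.46, 1.42 and 1.45 in the windows 5 kb away. The interval of the ratio in wide peaks, 1.03 to 1.36, overlapped that of their surroundings, 1.102 to 1.63, and so did the intervals for 2 to 3 kb. In peaks of 1 to 2 kb (2.07 to 2.32) and under 1 kb (2.79 to 3.32) it stood above the surroundings. Windows that met a peak were left out, so the surroundings were not sampled alike in the classes. Of up to 2 windows per peak, 1009 remained beside the 715 wide peaks and 26386 beside the 14023 under 1 kb. The density of CCGGAAG was 2.62 times that of the surroundings (0.0613 per kb) in wide peaks and 4.56, 6.79 and 6.30 times in the narrower classes. For the reordered letters the same quotient was 2.97 in wide peaks, above that of the ETS letters, and 4.40, 4.39 and 3.01 in the others.

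**Figure D3:**
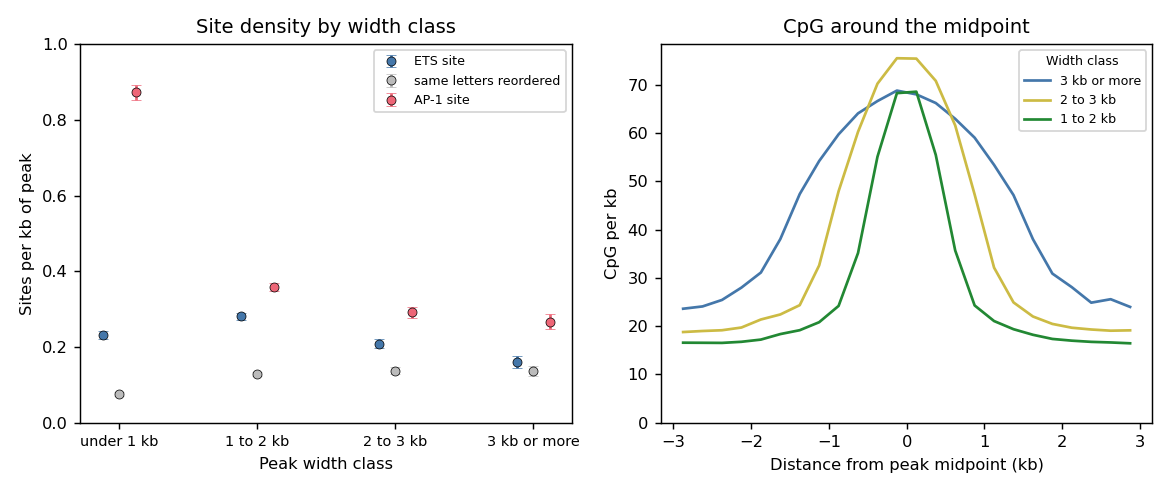
Left, sites per kb of peak (y axis) for the ETS site, the same letters reordered and the AP-1 site in each width class (x axis), with 95% exact Poisson intervals as bars. Right, CpG per kb (y axis) in bins of 250 bp against distance from the midpoint (x axis, kb), where the CpG-rich stretch is broadest in the wide peaks. At 3 kb or more the ETS site stands at 0.160 and the reordered letters at 0.136 per kb.

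Per peak, 314 wide peaks held CCGGAAG and 401 held none, so 43.9% had it, against 21.6% over all peaks and 36.4%, 29.6% and 12.3% in the narrower classes. This share, the highest of the 4 classes, rises with length, whereas the density per kb was the lowest. All densities per kb of peak divide by width, the value that chose the members, so they too depend on length. Matches per peak averaged 0.620 in wide peaks and 0.497, 0.392 and 0.145 in the narrower classes. The most in any wide peak was 4, as at PFN1, which encodes the actin monomer binder profilin, and at the EME2 peak. In the narrower classes the most was 6, 11 and 4. Of the wide peaks 23 had 3 or more, and the matching count over all peaks is not given. In the midpoint window, which has 1 length in all classes, CCGGAAG was found in 71 wide peaks (9.93%), below the 14.6% over all peaks. The narrower classes had 13.5%, 19.2% and 11.9%, and the difference from the 2 to 3 kb class was -3.59 points (-6.06 to -0.827). Among peaks centred within 500 bp of a TSS, the share was 11.2% (8.45 to 14.7) of 393 wide peaks and 16.2%, 25.6% and 27.1% in the narrower classes. CCGAAGG reached 10.9% in the same 393, so the ETS letters and their reordered form were nearly equally frequent. Among peaks centred over 1500 bp from a TSS the wide class was not lower: CCGGAAG was in 8.53% (4.83 to 14.6) of 129 wide peaks and in 7.32%, 8.14% and 6.28% of the narrower classes.

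The order found for TSS-centred peaks was also seen in windows of 600 bp around canonical coding TSSs, which do not depend on where a midpoint falls. CCGGAAG was in 73 of the 527 starts inside wide peaks, or 13.9% (11.2 to 17.1), against 18.3%, 30.3% and 36.4% for starts inside the narrower classes. Over all 19737 canonical coding starts of the annotation the share was 18.4%, so starts in wide peaks held the site less often than an annotated start at large. The reordered letters were in 9.87%, against 10.1%, 11.04% and 9.30%, and in 8.46% of all starts. The shorter CGGAA was found at 61.7% of the starts in wide peaks, against 68.7%, 76.5% and 80.8%. The core GGAA alone, at 11.01 per kb of wide peak, differed little from the 11.3, 11.7 and 12.7 of the narrower classes. Runs of 3 or more GGAA in a row were found in 13 wide peaks (1.82%), against 0.519% over all peaks and 1.15% in the 2 to 3 kb class. That difference had an interval of -0.255 to 1.98 points, which included 0.

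The AP-1 letters TGANTCA occurred 735 times in wide peaks, or 0.266 per kb (0.247 to 0.286), against 0.292, 0.359 and 0.873 in the narrower classes. The windows beside wide peaks had 0.246 per kb, which is close to the value inside. Anywhere in the peak the letters were found in 422 wide peaks (59.0%), against 40.6% over all peaks and 44.9%, 35.7% and 42.4% by class. A longer peak has more room for such a match. In the midpoint window, a smaller part of a wide peak than of a narrow one, they were found in 83 wide peaks (11.6%). That window share was 30.9% over all peaks and 13.2%, 20.6% and 42.1% by class. The interval of the difference from the 2 to 3 kb class, -4.15 to 1.33 points, included 0. Among the 129 wide peaks with a distant midpoint the share was 21.7% (15.5 to 29.6), and in the distant peaks of the narrower classes 29.1%, 41.9% and 51.1%. Among peaks centred within 500 bp of a TSS the wide class was not the lowest, with 9.41% (6.91 to 12.7) against 7.38%, 9.26% and 18.9%. The 13094 bp PLEC peak and the ZC3H12A peak each had 6 such matches, and the peak at the noncoding gene PVT1 had 7 in 3670 bp, whereas JUNB, which encodes an AP-1 subunit, had 1 in 5897 bp.

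Within a peak, CCGGAAG was somewhat denser in the inner part of the wide peaks (0.177 per kb, 0.156 to 0.201) than in the outer part (0.142, 0.123 to 0.163). The 2 intervals overlapped, which does not measure the difference, and the difference itself was not tested. In peaks of 1 to 2 kb the inner part had 0.383 and the outer part 0.171. The reordered letters stood at 0.143 per kb (0.124 to 0.165) inside and 0.128 (0.110 to 0.149) outside in wide peaks. TGANTCA was not denser inside wide peaks, at 0.256 inside and 0.274 outside.

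Protein-coding genes with a start in a wide peak numbered 649 of 20090, or 3.23%, while 56.1% had a start in any peak. Their median gene length was 18.4 kb, shorter than the 34.1 kb of genes whose starts lay only in narrower peaks. Gene groups are read beside that 3.23% and beside their own share with any peak. The lists were drawn up with earlier results of these peaks known, so the counts describe the genes and single out no pathway.

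Among immediate and early response genes, 8 of 20 had a start in a wide peak and 17 in any peak. These were IER2 (7482 bp), ZFP36L1 (4407 bp) and ZFP36L2 (3997 bp), whose products destabilise AU-rich mRNAs, TRIB1 (4113 bp), a pseudokinase gene, and ID1 (3868 bp), an inhibitor of bHLH factors. KLF10 (3539 bp), IER3 (3275 bp) and the circadian regulator BHLHE40 (3163 bp) completed them. In the AP-1 family it was 5 of 10, namely JUNB (5897 bp), FOSL2 (4045 bp), FOSB (3557 bp), FOS (3310 bp) and ATF3 (3178 bp), while 9 of 10 had any peak. Of these 5 peaks only the JUNB peak held CCGGAAG, beside 43.9% of all wide peaks, and 5 peaks are too few to be set apart from that share. Among genes that restrain ERK signalling, 4 of 11 were covered, and 10 by any peak: the phosphatase gene DUSP5 (4073 bp), SPRED3 (4049 bp), SPRED2 (3036 bp) and SPRY4 (3034 bp).

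For the G1 cell cycle it was 5 of 15, with 14 in any peak. These were the cyclin genes CCND1, CCND2 (3991 bp, not at its canonical start) and CCND3 (3014 bp) and the kinase gene CDK6 (4544 bp). The fifth was E2F3 (3858 bp), which encodes a transcription factor of S phase entry. Each of the 4 cyclin and kinase genes carried CCGGAAG in its peak, and E2F3 did not. Over all wide peaks 43.9% held it, and these 5 genes are too few to be set apart from that share. In the MYC network, 2 of 11 were covered (8 by any peak), MNT (4507 bp) and MXI1 (4196 bp), both of which encode antagonists of MYC. For the actin cytoskeleton it was 5 of 18 (17 in any peak). They were ACTN1 (5310 bp), ACTB (4407 bp), FLNA (4254 bp, not at its canonical start), PFN1 (4099 bp) and ACTG1 (3522 bp). These genes encode alpha-actinin, the cytoplasmic actins, filamin A and profilin.

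Of integrin and laminin genes, 3 of 19 had a wide peak and 16 had any peak. The 3 were LAMA5 (6619 bp), ITGB4 (4625 bp) and ITGA3 (3649 bp), which encode chains of laminin and of its epithelial receptors. Keratins had 2 of 18 (10 with any peak), the basal keratin gene KRT5 (3415 bp) and KRT7 (3046 bp). Squamous transcription factors had 4 of 15 (12 with any peak), KLF4 (3837 bp), TFAP2C (3745 bp), SOX9 (3015 bp) and OVOL1, which had 1 peak of 3169 bp at its canonical start and another of 3119 bp at a second start. In the TGF-beta list it was 3 of 19, TGIF1 (3990 bp), the ligand gene TGFB1 (3812 bp) and the inhibitory SMAD6 (3759 bp), while 18 of 19 had any peak. EGFR (3138 bp) was 1 of 11 in its family and ligand list (6 with any peak), and TEAD3 (3314 bp), which encodes a partner of YAP, 1 of 14 in the Hippo list (12 with any peak).

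Smaller counts were found in the remaining groups. Of the 8 transcription factors of epithelial to mesenchymal transition, 6 had any peak and 1 a wide peak, ZEB1 (3014 bp), a member by 14 bp. Of 13 effector and adhesion genes of that transition, 12 had any peak and 0 a wide one, which allows a share up to 22.8% (Wilson) and does not set the list apart from the 3.23% of all coding genes. All 11 NF-kappaB genes had a peak and 0 had a wide one, with an upper limit of 25.9%, which also includes 3.23%. Among 77 cytosolic ribosomal protein genes, 75 had a peak and 1 a wide peak, RPL28 (3105 bp), or 1.30% (0.230 to 6.996), an interval that includes 3.23% as well. In the ETS family it was 3 of 28, with 20 in any peak. The 3 were ERF (3862 bp), which encodes a repressor, ETV2 (3673 bp, not at its canonical start) and ELK3 (3406 bp). Of 10 abundant nuclear lncRNAs, MIR22HG (4538 bp), PVT1 (3670 bp) and NEAT1 (3656 bp) had one and 8 had any peak. Over all 18576 annotated lncRNA genes, 1.24% had a start in a wide peak and 18.6% in any peak.

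**Figure D4:**
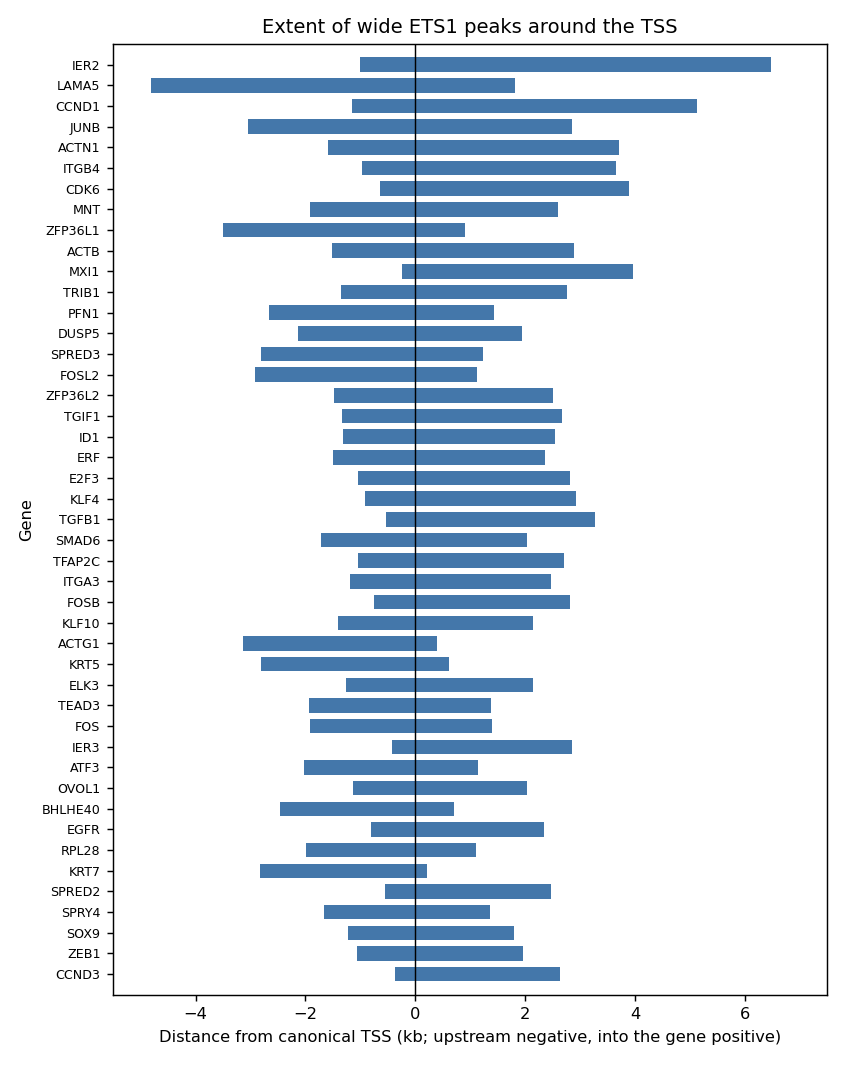
Extent of each wide peak (bars) that covers the canonical TSS of a gene from the lists, in kb from that TSS (x axis, upstream negative, into the gene positive), with 1 gene per row (y axis) ordered by peak width. IER2 reaches 6477 bp into the gene and LAMA5 4802 bp upstream.

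The 5′ ends of 18 of 3026 annotated miRNA genes (0.595%) lay in 17 wide peaks, and those of 164 lay in any peak. Since the miRNA genes were not on a list, those named here were chosen after their values were seen. MIR200C and MIR141 shared the 3864 bp peak of their host gene MIR200CHG (chr12:7069875-7073738). Their products are known to target ZEB1, whose own start also lay in a wide peak. MIR203, of the stratified epidermis, lay in a peak of 3560 bp, MIR135B at LEMD1 in one of 3485 bp, and MIR193B in one of 3341 bp with its host MIR193BHG. RefSeq (GRCh38.p14 table, where MIR203 is listed as MIR203A) had mature sequences for 15 of the 18. The following 5 are shown because these miRNAs are known from epithelial cells, with the seed, bases 2 to 8, in capitals.
miR-200c-3p: uAAUACUGccggguaaugaugga
miR-141-3p: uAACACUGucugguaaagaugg
miR-203a-3p: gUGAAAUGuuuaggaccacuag
miR-193b-3p: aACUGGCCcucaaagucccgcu
miR-135b-5p: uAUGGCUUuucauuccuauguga
The 5 seeds differed from each other. The hairpins of MIR200C and MIR141 both lay in the same peak, which had 2 CCGGAAG matches, whereas the MIR203 and MIR135B peaks had 0.

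Wide peaks tended to have other peaks close by. The nearest other peak was under 1 kb away for 171 of them, or 23.9% (20.9 to 27.2), against 14.4% over all peaks and 18.0%, 13.7% and 13.9% in the narrower classes. The difference from the 2 to 3 kb class was 5.88 points (2.47 to 9.48). Another peak lay within 5 kb of 402 (56.2%), against 34.1% over all peaks and 40.8%, 32.5% and 33.0% by class, and the median gap was 3741 bp against 7478, 11651 and 12233 bp. In 64 cases the next peak along the chromosome was also wide, in 13 of them under 1 kb away. The shortest such gaps were 54 bp, at RELT and again at TNRC18, followed by 82 bp at NFIX, 107 bp at PLEC, 122 bp at IRX4 and 136 bp at AGRN. Each of these 6 pairs is counted as 2 members, and joining across such gaps changes the count of wide peaks (1290 with peaks under 1 kb apart joined).

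Of 20090 protein-coding genes, 74 had 2 or more wide peaks in the gene or within 5 kb upstream, and 16 had 3 or more. A peak was counted for every gene in reach, so SCO2 and TYMP, for example, were counted on the same 2 peaks. The 74 genes are therefore not separate clusters, and the matching count for peaks of any width is not given. RXRA, the gene of a nuclear receptor that pairs with retinoic acid receptors, had 5 of them, from 3183 to 4717 bp. PLEC had 4, from 5293 to 13094 bp, which together spanned 31090 bp. ANO1, NFIX, CCND1, GSE1 and ARAP1 also had 4 each, as did an unnamed coding locus (ENSG00000287725) on chromosome 11. Some of these peaks also belong to a neighbour. The 6465 bp peak counted for NFIX covered the LYL1 start, and the 3588 bp peak counted for ARAP1 covered a STARD10 start. The midpoint of the 3807 bp peak counted for CCND1 lay in the body of LTO1. The CCND1 set was compact: its peaks of 6277, 3848, 3807 and 3727 bp all fell in or within 5 kb of a gene of 13.3 kb, while the 4 of GSE1 were spread over 507 kb. BCL9L (18432 bp in all) and CTTN (13996 bp) had 3 each. The ANO1 gene, with peaks of 4211 to 6440 bp, is 203.6 kb long.

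**Figure D5:**
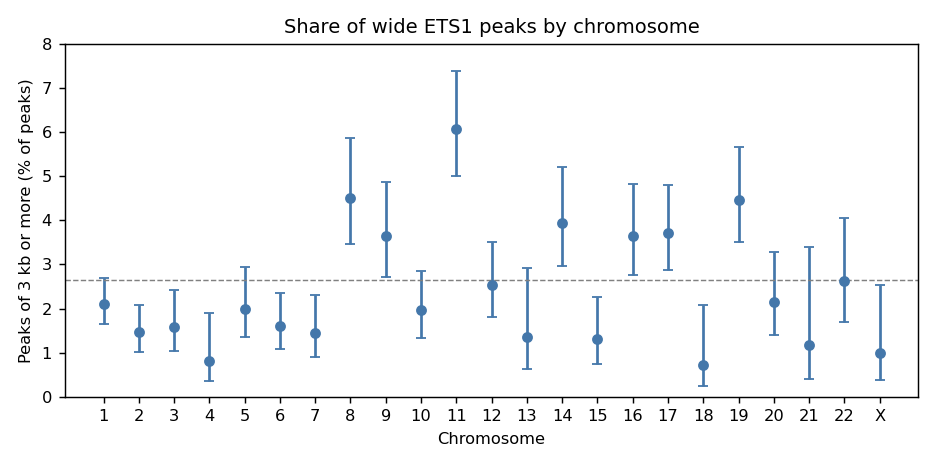
Share of ETS1 peaks that were 3 kb or more (y axis, %) on each chromosome (x axis), with 95% Wilson intervals as bars and the share over all chromosomes, 2.65%, as the dashed line. Chromosome 11 stands highest at 6.08%.

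The share of peaks that were wide differed between chromosomes. On chromosome 11 it was 95 of 1562 (6.08%), followed by chromosome 8 with 52 (4.51%), chromosome 19 with 64 (4.47%) and chromosome 14 with 46 (3.93%). The lowest shares were 0.716% on chromosome 18, with 3 wide peaks, and 0.817% on chromosome 4, with 5. Within 10 Mb of a chromosome end lay 275 wide peaks, or 38.5% (35.0 to 42.1), against 23.8% over all peaks and 30.0%, 25.8% and 20.7% in the narrower classes. The difference from the 2 to 3 kb class was 8.50 points (4.51 to 12.6). Windows of 1 Mb with at least 1 wide peak numbered 380 of the 2337 with a peak, and 248 of them had exactly 1.

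The fullest window, chromosome 14 from 105 to 106 Mb, had 15 wide peaks among 61, with starts of AKT1, a kinase gene, INF2, a formin gene, CRIP1, CRIP2, MTA1 and AHNAK2. Chromosome 8 from 145 to 146 Mb had 14 among 47, with PLEC, SHARPIN, CYC1 and RECQL4, and the megabase before it had 12 among 46, with SCRIB, EPPK1 and EEF1D. On chromosome 11 the window from 69 to 70 Mb had 12 among 97, with CCND1, ANO1, FGF19 and MYEOV, and that from 64 to 65 Mb had 11 among 61. Over 11q13, taken from 68 Mb to beyond CTTN, 27 of 208 peaks were wide (12.98%, 9.08 to 18.2), against 2.57% elsewhere. This band, with CCND1, ANO1 and CTTN, is often amplified in head and neck carcinomas. The list holds no copy number, so its part in the widths was not tested. Without this stretch, 688 wide peaks remained and 56.5% of them were centred within 500 bp of a TSS.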

How the data were processed

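ETS1 ChIP-Seq of SCC25 cells comprised 3 samples (2 with the C20 antibody, 1 with 501A). The authors mapped reads to hg19 with Bowtie 1.1.1 and used SAMtools 1.3 (submitters' processing notes), called peaks by MACS2 with the merged input as control, and combined the samples by IDR. The deposited list gives the start and end of each peak in bp, with no signal and no depth per sample. Statements therefore concern 1 pooled list, and no test over samples could be made. Intervals (95%; Wilson, Newcombe, exact Poisson) cover counting error only.

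Peaks were classed by width, compared with GENCODE release 44 (GRCh37 mapping) and searched on both strands of GRCh37, with windows of the same length 5 kb away that held no peak as surroundings (Python 3.11.15, pandas 2.3.3, pysam 0.24.0, scipy 1.17.1). No peak ended beyond its chromosome. The scripts were tested on simulated peaks and sequences with known answers. Members and lists were chosen with earlier results of these data known. Genes named were those at the 20 widest peaks, the 3 peaks on either side of the limit, the 18 lists, genes with several wide peaks (at most 10), peaks with most coding genes (at most 5), and the 5 widest peaks with distant and with distant intergenic midpoints. Windows of 1 Mb, close pairs and miRNAs were named after their values were seen. Alternatives varied the width limit, the TSS set, the window, the joining of peaks and the regions kept. Super-enhancers were not analysed here.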

Additional observations from a re-analysis of the deposited data

How the results depend on the processing

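Of 65 values recomputed for 8 results, 38 stayed within the interval of the reported value or within 1.5 times the reported count and 27 moved. With a limit of 2500 bp there were 1426 wide peaks, 60.4% centred within 500 bp of a TSS, 0.177 CCGGAAG per kb and 1263 genes. With 4000 bp there were 213, with 48.8%, 19.7% holding starts of 2 or more coding genes, 65.0% GC and 217 genes. Joining peaks under 1 kb apart gave 1290 wide peaks, with 43.8% centred at a TSS, 79.9% covering one, 61.9% GC, 0.339 TGANTCA per kb and 1087 genes. Among the earlier peaks of the list, up to its middle, TGANTCA stood at 0.291 per kb. With coding TSSs only, 49.5% were centred at a TSS and 79.2% covered one, canonical starts gave 7.27% with 2 or more genes, and a limit of 1500 bp gave 82.0%. GC over whole peaks was 63.2%, and the 600 bp window gave 0.179 CCGGAAG and 0.210 TGANTCA per kb. Alternatives added after the data were seen left out the 10 Mb at chromosome ends (440 wide peaks, 65.1% GC, 0.144 CCGGAAG per kb, 404 genes) or chromosomes 8 and 11, and neither the latter nor leaving out 11q13 moved any of the 8 results. No paired analysis was possible because the deposited list is 1 pooled set with no values per sample, and for the same reason no replicate could be left out. Without depth, summits or signal, the spread of a width between samples is unknown, and the number of members depends on the limit and on how neighbouring peaks are joined.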
